A study of Mus musculus with 36 samples.

Results

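S100a5, Lrrc3b, Kcng1, Nptx2, Heg1, Rasl11a, Cartpt, Dusp14, Gem and Vsnl1 are 10 effector genes, among 57010 gene identifiers, whose RNA was captured with ribosomes that bear phosphorylated S6 protein (pS6). They were chosen by name for higher counts after odor than without it in earlier results of these same libraries, so their levels against no odor are a description with no test. Tests were kept for comparisons of odors with each other, whose differences use no no-odor library. The no-odor libraries still entered the filter and the estimate of spread, and the odor libraries are among those on which the members were chosen. An antibody to pS6 enriches RNA being translated in recently active cells, and the RNA bound in mouse olfactory epithelium was sequenced. All 36 libraries came from 8-week-old wild-type C57BL/6J males. Each mouse was kept alone in clean air for 4 h, followed by 90 min with a filter paper that was empty or held 10 µL of odorant.

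There were 12 groups with 3 biological replicates each, in 3 sets that the labels also name as batches. In the AD set the groups were empty paper, acetophenone, decanal, and acetophenone with decanal. In the OC set they were empty paper, octanal, cis-3-hexenol, and octanal with cis-3-hexenol. In the FM set they were empty paper, a floral fragrance, a mint fragrance and a floral-mint fragrance, all blended by a fragrance company. The single odorants were undiluted and the binary mixtures held equal parts, so each component had a smaller volume in a mixture than alone.

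An olfactory sensory neuron responds to odorants through its receptor, which raises cyclic AMP and opens cation channels, so that calcium enters the cell. Calcium and cyclic AMP signals reach the nucleus, where immediate early transcription factors are induced first and effector genes follow. Effector genes encode proteins that carry out work at the membrane, at the synapse or in signaling, and many of them limit or reshape later activity. S100a5 is a calcium-binding protein made mainly in mature olfactory sensory neurons and long used as a reporter of their activity.

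The members fall into groups by role. S100a5 and Vsnl1 (a visinin-like sensor) bind calcium. Kcng1 is a potassium channel subunit that makes no channel alone and modifies the channels it joins, and Gem is a small GTP-binding protein that inhibits voltage-gated calcium channels. Dusp14 is a phosphatase acting on MAP kinases, and Rasl11a is a small Ras-like GTPase. Lrrc3b and Heg1 are membrane proteins, with leucine-rich repeats in the former, and in the latter a tail that binds Krit1. Nptx2 is a secreted pentraxin that gathers glutamate receptors at synapses, and Cartpt encodes the precursor of the CART neuropeptides.

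Library totals ran from 16.04 to 26.4 M expected counts. All 10 members passed the filter on low counts in each set, where the AD, OC and FM fits held 19514, 19568 and 19204 genes. All 14 listed markers of mature olfactory sensory neurons, Omp and Gnal among them, were above 0 in every library. Their summed level was 10600 to 12200 CPM (counts scaled to a common library total with TMM factors) in AD controls, 8290 to 10800 in OC controls and 14400 to 16600 in FM controls. After odor it lay from 12400 in cis-3-hexenol to 31600 in octanal, and its mean was 1.48 to 2.71 times that of the controls of the same set. These are bulk libraries of RNA captured with pS6, and none is of RNA before capture. More cells of a type, more RNA per cell and a larger captured share of that RNA therefore cannot be told apart. This holds for the members as well, and the cell that made each member's RNA was not identified. Markers of other cells moved as well. The mean summed level of 5 red blood cell genes was 84200 CPM in OC controls and 15200 to 22700 in OC odors, and in the AD set 17600 in controls, 6180 in acetophenone, 40300 in decanal and 34900 in the mixture. The summed osteoclast and bone markers were 0.261 to 0.446 times control in the OC odors and 0.652 to 1.27 times control elsewhere. The part of these differences in the values that follow was not tested.

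Promoters from 250 bases before to 50 bases after the gene start were matched in RefSeq (GRCm38.p6) for 7 of the 10 members, 8 promoters in all because Vsnl1 has 2; Kcng1, Nptx2 and Gem were not matched. The 3 printed here are those with a match to any motif searched, and Cartpt and Rasl11a are also the genes with the smallest p for acetophenone against decanal. Capitals mark the cyclic AMP response element core TGACG (with its reverse complement) and the Ebf (olfactory O/E) motif CCCNNGGG.
Cartpt promoter, chr13:99900634-99900933, minus strand: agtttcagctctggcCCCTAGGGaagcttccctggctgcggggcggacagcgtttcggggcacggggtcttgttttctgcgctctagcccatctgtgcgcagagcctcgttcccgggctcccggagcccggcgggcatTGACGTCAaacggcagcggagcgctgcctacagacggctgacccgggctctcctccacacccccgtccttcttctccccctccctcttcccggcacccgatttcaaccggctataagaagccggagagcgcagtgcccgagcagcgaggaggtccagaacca
Rasl11a promoter, chr5:146844821-146845120, plus strand: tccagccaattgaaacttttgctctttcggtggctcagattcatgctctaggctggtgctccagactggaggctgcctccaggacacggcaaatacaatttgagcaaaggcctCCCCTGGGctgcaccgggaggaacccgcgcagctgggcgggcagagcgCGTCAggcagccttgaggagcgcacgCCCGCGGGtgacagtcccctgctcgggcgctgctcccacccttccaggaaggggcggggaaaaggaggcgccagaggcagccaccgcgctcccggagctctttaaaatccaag
Heg1 promoter, chr16:33684216-33684515, plus strand: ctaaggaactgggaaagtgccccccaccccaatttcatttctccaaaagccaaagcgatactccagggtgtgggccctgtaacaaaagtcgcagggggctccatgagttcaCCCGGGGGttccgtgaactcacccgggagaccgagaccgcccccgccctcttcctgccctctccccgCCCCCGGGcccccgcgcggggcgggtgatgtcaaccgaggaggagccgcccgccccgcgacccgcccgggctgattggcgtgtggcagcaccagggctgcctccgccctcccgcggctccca
The Cartpt promoter held the full palindrome TGACGTCA at position -112 from the gene start, a match found in 1.79% of 32851 promoters of 300 bases. That palindrome contains TGACG on each strand, and the core was also in the Rasl11a promoter at -89, read on the opposite strand. TGACG was therefore in 2 of 8 member promoters, against 20.8% of all. CCCNNGGG was in all 3 printed promoters, 3 of 8 against 13.7%, and GCGNGGGCG (EGR) was in Heg1 alone, 1 of 8 against 5.55%. On either strand no member promoter had TGANTCA (AP-1, 7.81% of all), TAATTA (homeodomain, 5.29%), a CArG box (1.63%) or a MEF2 site (3.19%). A match is a run of letters in this window and no evidence of binding.

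Against no odor, the median log2 change of the 10 members was 0.95 in acetophenone, 1.44 in decanal and 1.42 in their mixture. It was 2.09 in octanal, 0.92 in cis-3-hexenol and 1.84 in their mixture, and 1.24, 1.32 and 1.32 in floral, mint and floral-mint. The median of all genes tested lay between -0.05 and 0.05 in these comparisons. The odors of a set share their control libraries, so these values are not independent of each other. All 3 odor libraries lay above all 3 controls for 9 members in acetophenone, where 14.6% of all genes did so. The count was 10 in decanal (21% of all genes) and 9 in the mixture (20.2%). In the OC set it was 10 in octanal (21.8%), 8 in cis-3-hexenol (16.8%) and 10 in the mixture (24.7%). In the FM set it was 10 in floral (19.4%), 10 in mint (14.3%) and 10 in floral-mint (17.2%). Since these contrasts chose the members, nothing is read from the counts. The members that overlapped their controls were S100a5 in acetophenone, Gem in the acetophenone-decanal mixture, and Cartpt and Gem in cis-3-hexenol.

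**Figure D1:**
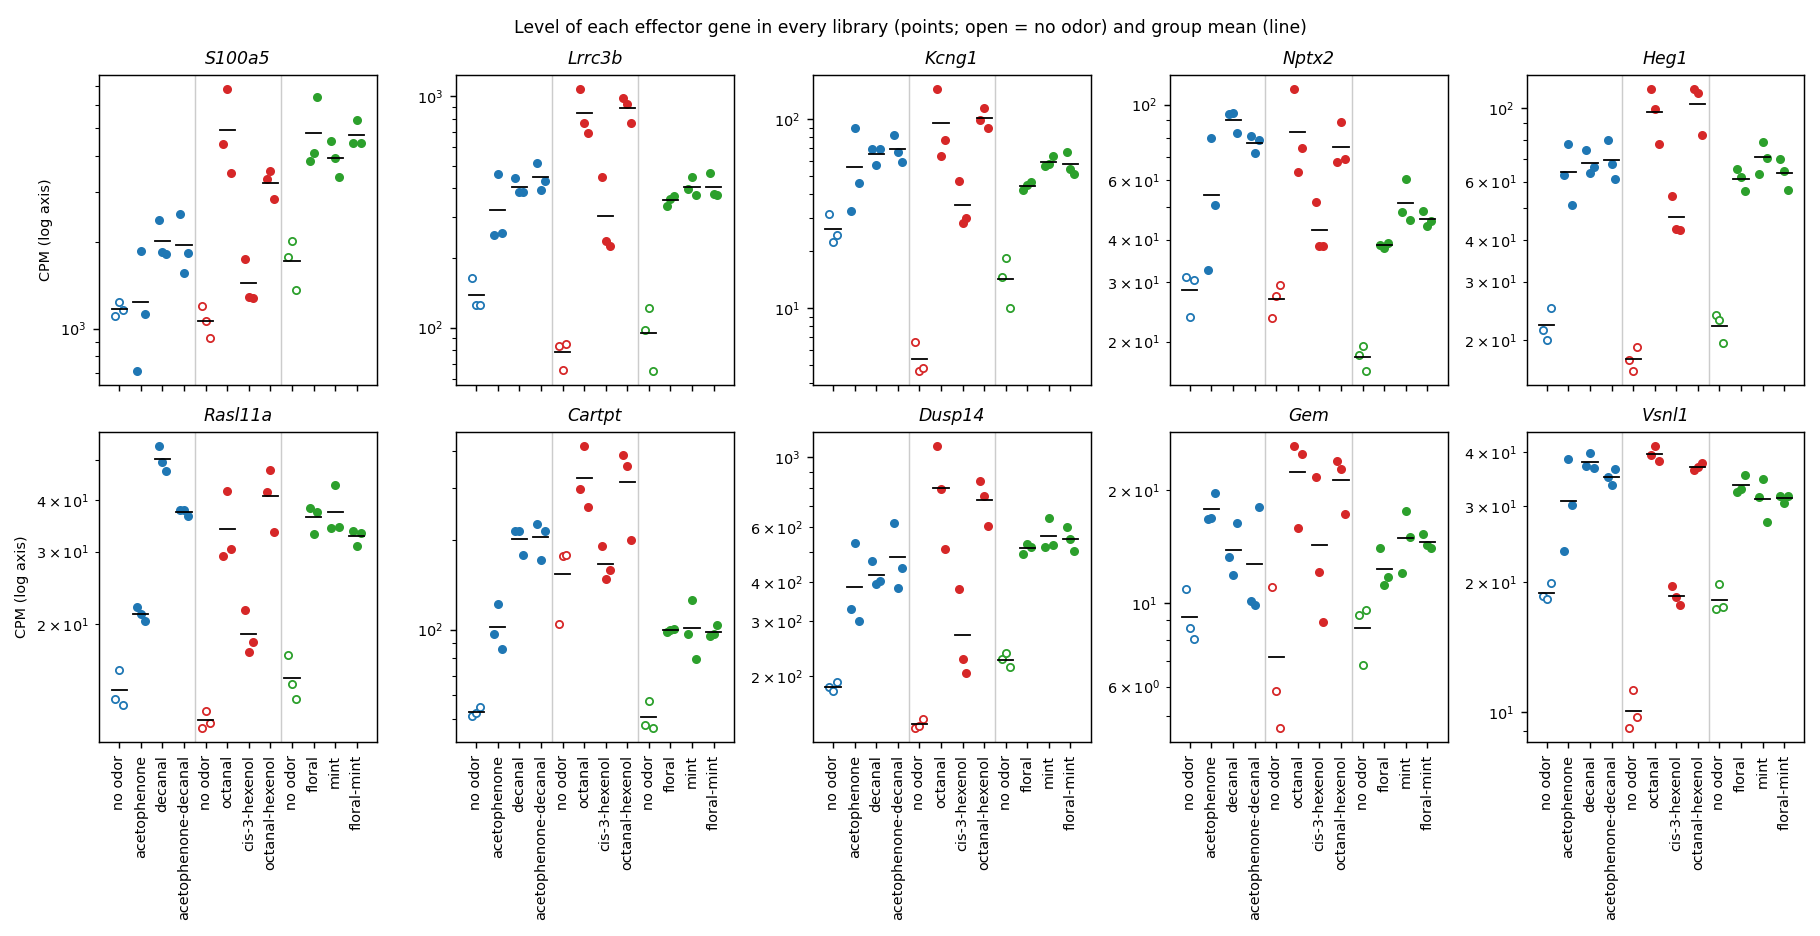
Level of each of the 10 members in CPM (vertical axes, logarithmic) in the 3 libraries of each of 12 groups (horizontal axes), with open points for no odor and a line at the group mean. Kcng1 in the OC set spans the widest range, from 4.66 CPM in a control to 145 in an octanal library.

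**Figure D2:**
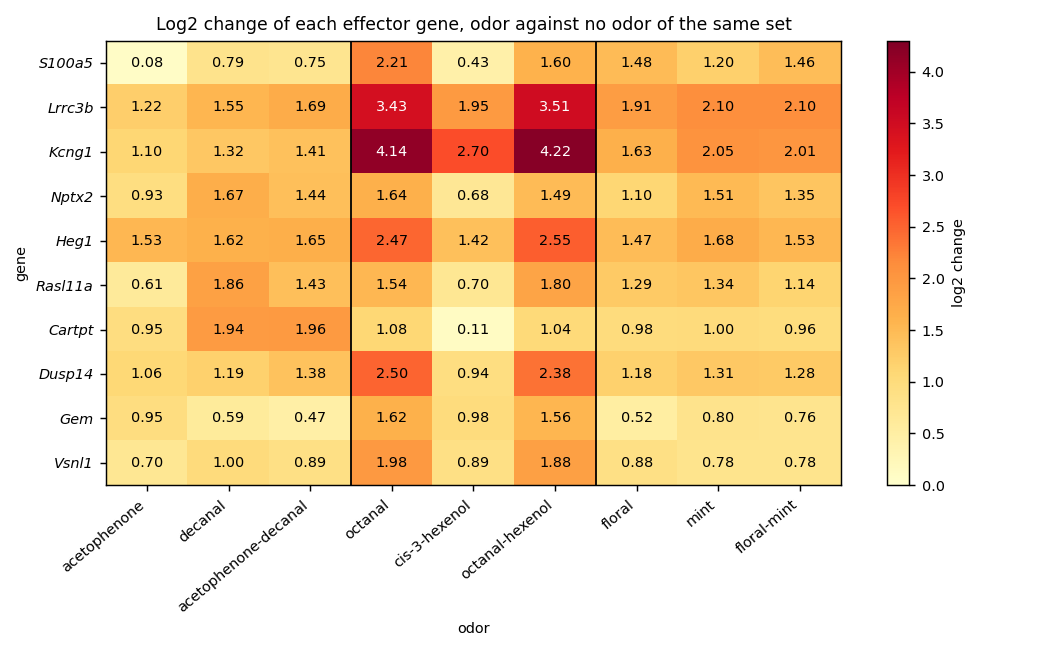
Log2 change of each member (rows) in each odor (columns) against the no-odor libraries of its set, on TMM-scaled counts, with vertical lines between the sets. The deepest colors are Kcng1 and Lrrc3b in octanal and the octanal-hexenol mixture, and the palest are S100a5 in acetophenone (0.08) and Cartpt in cis-3-hexenol (0.11).

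Among the calcium-binding members, S100a5 (ENSMUSG00000001023) was at 1109, 1236 and 1158 CPM in the 3 AD controls and at 713, 1865 and 1119 in acetophenone. One acetophenone library thus lay above every control and the others below the highest of them, and the log2 change was 0.08 (SE 0.256). It was -0.36 without acetophenone replicate 2, and negative also with libraries scaled to the mature neuron markers. In octanal S100a5 was at 4397, 6845 and 3487 CPM against 1198, 1064 and 928 in OC controls, a log2 change of 2.21. In cis-3-hexenol it was at 1743, 1286 and 1276 CPM, all above the controls by a small margin (0.43). Its mean was 1720 CPM in FM controls and between 3940 and 4780 with the fragrances, with changes of 1.20 to 1.48.

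Vsnl1 (ENSMUSG00000054459) had the smallest spread of libraries around their group means, with a log2 SD of 0.133 over 36 libraries. It was at 9.17, 11.2 and 9.71 CPM in OC controls, at 19.5, 18.4 and 17.7 in cis-3-hexenol, at 39.3, 41.3 and 38.1 in octanal and at 36.3, 37 and 37.8 in the mixture. None of these 4 groups overlapped another, with octanal just above the mixture. Elsewhere its log2 changes were 0.70 to 1.00.

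Kcng1 (ENSMUSG00000074575), the channel modifier, had the largest change of any member. In the OC set its level was 6.64, 4.66 and 4.79 CPM in controls, 145, 63.5 and 77.3 in octanal, 47.2, 28.1 and 29.9 in cis-3-hexenol and 99.2, 114 and 89.5 in the mixture. The log2 changes were 4.14, 2.7 and 4.22. OC controls were its lowest group. AD controls held 31.6, 22.3 and 24.4 CPM, and there the changes were 1.1 to 1.41. Gem (ENSMUSG00000028214) was measured near the low end, at 4.66 to 11.1 CPM in controls. In octanal it was at 26.2, 15.9 and 24.9 CPM, and over all odors its changes ran from 0.47 to 1.62.

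Of the signaling members, Dusp14 (ENSMUSG00000018648) was at 137, 139 and 147 CPM in OC controls and at 1089, 795 and 511 in octanal, a log2 change of 2.50. In cis-3-hexenol it was at 381, 227 and 205 CPM (0.94), with replicate 1 above the other libraries of that group. Its remaining changes were 1.06 to 2.38. Rasl11a (ENSMUSG00000029641) had closely spaced AD libraries: 13.2, 15.5 and 12.8 CPM in controls, 22, 21.1 and 20.4 in acetophenone, 37.8, 37.7 and 36.5 in the mixture, and 54.1, 49.6 and 47 in decanal. These 4 groups did not overlap. Its log2 changes there were 0.61, 1.43 and 1.86.

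Of the membrane members, Lrrc3b (ENSMUSG00000045201) was at 83.7, 65.8 and 85 CPM in OC controls, 1077, 764 and 693 in octanal, 449, 236 and 224 in cis-3-hexenol and 981, 921 and 763 in the mixture. The changes were 3.43, 1.95 and 3.51, with cis-3-hexenol between the controls and the other odors. Heg1 (ENSMUSG00000075254) changed by no less than 1.42 in any odor, and by 2.55 in the octanal-hexenol mixture. In acetophenone it was at 62.9, 78.1 and 51.2 CPM against 21.4, 20.1 and 24.9 in controls, a change of 1.53 and the top value among members for that odor.

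Of the secreted members, Nptx2 (ENSMUSG00000059991) was at 31, 23.6 and 30.5 CPM in AD controls, 32.5, 79.5 and 50.5 in acetophenone and 93.6, 94.7 and 82.4 in decanal. All decanal libraries lay above all acetophenone libraries. Cartpt (ENSMUSG00000021647) was at 51.3, 52.3 and 55 CPM in AD controls, 96.9, 122 and 86.3 in acetophenone, 216, 215 and 178 in decanal and 228, 172 and 215 in the mixture. Decanal and the mixture, its 2 strongest odors, gave changes of 1.94 and 1.96. In the OC set it started higher, at 104, 177 and 179 CPM in controls, and cis-3-hexenol at 191, 148 and 159 overlapped them, with 1 library above the highest control and a change of 0.11 that became -0.10 without control replicate 1.

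By point value, the order of the odors thus differed between members. With TMM scaling the top odor was octanal or the octanal-hexenol mixture for 7 members, decanal for Nptx2 and Rasl11a, and the acetophenone-decanal mixture for Cartpt. The gap was small for Nptx2 (1.67 in decanal, 1.64 in octanal) and Rasl11a (1.86 in decanal, 1.80 in the octanal-hexenol mixture). With scaling to mature neuron markers an OC odor stayed on top for 3 members, Lrrc3b, Kcng1 and Dusp14. S100a5 was then highest in floral (1.09), Heg1 (1.27) and Vsnl1 (0.64) in decanal, and Gem in floral-mint (0.23). With TMM scaling the lowest was acetophenone for 5 members, cis-3-hexenol for 4 and the acetophenone-decanal mixture for Gem. Odors of different sets have different controls and batches, so differences between sets were not tested.

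The components of each set were tested against each other (edgeR quasi-likelihood test, 2-sided, Benjamini-Hochberg adjustment over all genes of the set). Acetophenone gave lower levels than decanal for Rasl11a, Cartpt and Nptx2, 3 of 10 members, where 12.9% of all genes were called lower. The log2 difference was -1.25 for Rasl11a (SE 0.103, adjusted p 3.73e-06), -1.0 for Cartpt (SE 0.136, adjusted p 0.000134) and -0.74 for Nptx2 (SE 0.225, adjusted p 0.024). For these 3 genes all acetophenone libraries lay below all decanal ones, as for 20.6% of all genes. None of the members was called higher (16.5% of all genes were). Gem was the only member with a positive difference, 0.36, and its acetophenone libraries (16.8, 16.9 and 19.7 CPM) lay above its decanal ones (13.2, 11.9 and 16.4 CPM), but it was not called (interval -0.12 to 0.84, adjusted p 0.25). The 95% intervals of Heg1 (-0.41 to 0.22) and Dusp14 (-0.55 to 0.29) did not reach the difference of Rasl11a. S100a5 (-1.26 to -0.16, adjusted p 0.0507) did not pass the threshold.

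The acetophenone libraries were uneven. Replicate 2 had 8 of 10 members above their group mean, by 0.41 on average on the log2 scale, and its summed mature neuron markers were 0.40 above theirs. Without it, 7 members were called lower in acetophenone than in decanal, and Rasl11a stayed at -1.25 while Cartpt was at -1.15. The share of all genes called without that library is not given, so this count is not read as a result about the members. The mature neuron markers went the opposite way to the members: 10 of 14 were higher in acetophenone than in decanal and 1 was lower, with a median difference of 0.59. With libraries scaled to those markers, 9 members were called lower, with Rasl11a at -1.65 and Cartpt at -1.43; this scaling moved the median of all genes to -0.41, and 28% of them were called lower. All 5 red blood cell markers were lower in acetophenone (median -2.69), and their part in the result was not tested.

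**Figure D3:**
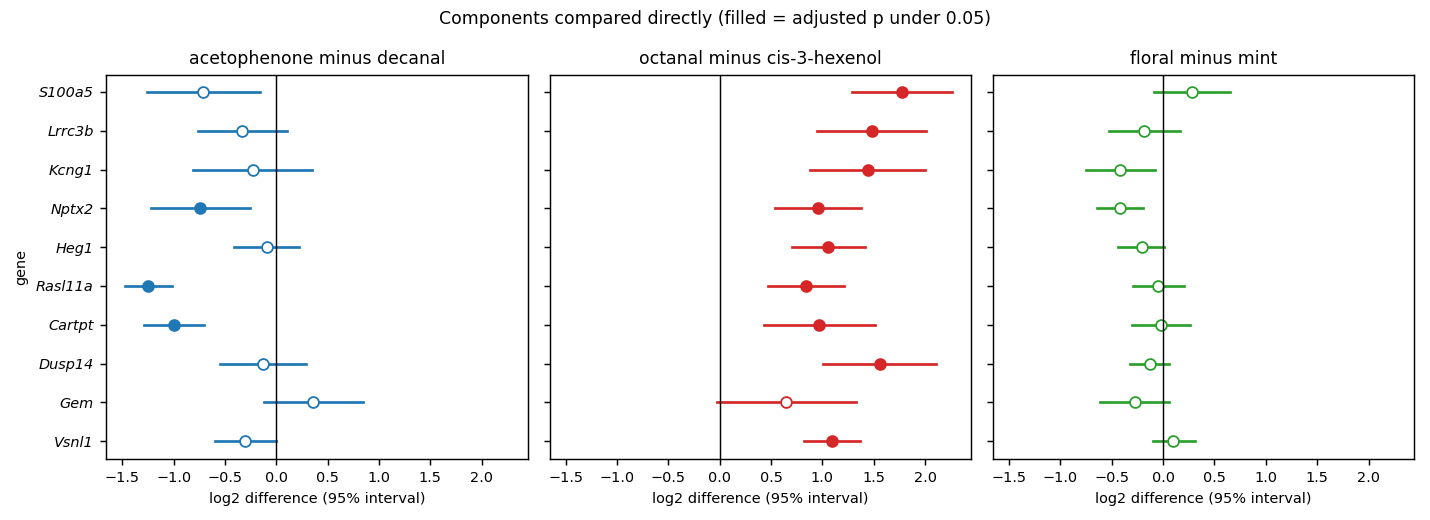
Log2 difference of each member (rows) between the components of each set, with 95% intervals from the fit, filled where the adjusted p was under 0.05. Acetophenone against decanal has 3 filled points below 0, octanal against cis-3-hexenol has 9 above 0, and floral against mint has none.

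Octanal gave higher levels than cis-3-hexenol for 9 of 10 members, all but Gem, where 12% of all genes were called higher. The median difference over the members was 1.07, beside -0.04 over all genes. The largest was S100a5 at 1.77 (SE 0.227, adjusted p 0.00018), followed by Dusp14 at 1.56, Lrrc3b at 1.48 and Kcng1 at 1.44 (adjusted p 0.00161, 0.00161 and 0.00259). Vsnl1 had the smallest p, with 1.09 (SE 0.131, adjusted p 9.21e-05). Heg1 differed by 1.05, Cartpt by 0.97, Nptx2 by 0.96 and Rasl11a by 0.84 (adjusted p 0.00113, 0.0157, 0.0046 and 0.00468). Gem, at 21.7, 12.1 and 8.94 CPM in cis-3-hexenol, differed by 0.65 with an interval of -0.03 to 1.33 (adjusted p 0.159).

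Mature neuron markers moved with this difference: 9 of 14 were higher in octanal than in cis-3-hexenol, with a median of 0.72. With libraries scaled to them, 4 members were still called higher, S100a5 at 1.18, Dusp14 at 0.88, Lrrc3b at 0.81 and Kcng1 at 0.69, where all genes had a median of -0.71 and 0.833% were called higher. The other 6 were no longer past the threshold or had not been, at -0.02 (Gem) to 0.43 (Vsnl1). In cis-3-hexenol replicate 1 all 10 members lay above their group mean, by 0.37 on average, and the neuron markers by 0.27. Without that library all 10 members were called, Gem included at 1.1. No share of all genes is given for that fit, so nothing about the members is read from the count.

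Floral and mint gave 0 called members (edgeR; 0.354% of all genes were called). At an unadjusted p under 0.05 there were 2, Nptx2 at -0.42 (interval -0.64 to -0.20, adjusted p 0.179) and Kcng1 at -0.42 (-0.75 to -0.08). DESeq2 called 1, Nptx2. The share of all genes at an unadjusted p under 0.05, or by DESeq2, is not given, so nothing is read from these 2 counts. The other 8 members had intervals inside -0.61 to 0.65, so a difference as large as that of S100a5 between octanal and cis-3-hexenol lies outside every interval here. Spread between libraries was smaller in this set: in simulated data 67.2% of genes changed by 2-fold were recovered for floral against mint, 42.9% for acetophenone against decanal and 43.1% for octanal against cis-3-hexenol.

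The mixtures were then tested against each component, to see which component's level they matched. The acetophenone-decanal mixture was above acetophenone for 2 members, Rasl11a by 0.82 (SE 0.103, adjusted p 0.000101) and Cartpt by 1.01 (SE 0.136, adjusted p 0.000171), where 11.3% of all genes were called higher. Without acetophenone replicate 2 the count was 8, with no share of all genes given for that fit. With libraries scaled to mature neuron markers the count was 9, where all genes had a median of 0.33 and 19.9% were called higher. Those markers themselves were lower in the mixture (median -0.43). Against decanal it had 0 called members (0.287% of all genes), 1 at an unadjusted p under 0.05 and 1 by DESeq2. That gene was Rasl11a in both, at -0.43 (interval -0.64 to -0.21, adjusted p 0.205), with all mixture libraries below all decanal libraries. Neither of those 2 counts has a share of all genes beside it. Cartpt differed from decanal by 0.01 (-0.28 to 0.30).

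The octanal-hexenol mixture was above cis-3-hexenol for 9 members, again all but Gem, where 7.86% of all genes were called higher. The differences ran from 0.82 for Nptx2 (adjusted p 0.0164) to 1.55 for Lrrc3b (adjusted p 0.00232), with Vsnl1 at 1.00 (SE 0.131, adjusted p 0.000417). Gem was at 0.58 (-0.10 to 1.26). The neuron markers rose too (10 of 14, median 0.83), and with scaling to them 3 members were called, Lrrc3b at 0.81, Kcng1 at 0.77 and Dusp14 at 0.69, beside a median of -0.84 over all genes and 0.557% called higher. Without cis-3-hexenol replicate 1 all 10 were called, again with no share of all genes beside the count. Against octanal the mixture had 0 called members, by edgeR and by DESeq2 (0.0715% of all genes were called). At an unadjusted p under 0.05, where the share of all genes is not given, there was 1, S100a5. It was at 3317, 3533 and 2818 CPM in the mixture, a difference of -0.61 (interval -1.08 to -0.14, adjusted p 0.998). Vsnl1 had the narrowest interval, -0.37 to 0.18.

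The floral-mint fragrance had 0 called members against floral (0.12% of all genes) and 0 against mint (0.104%), by edgeR and by DESeq2. At an unadjusted p under 0.05 there were 2 against floral, Kcng1 at 0.37 (interval 0.04 to 0.71) and Nptx2 at 0.25 (0.04 to 0.47), and 0 against mint. Shares of all genes at that threshold are not given, so the counts are not read as a result. By mean CPM the mixture lay between its components for 4 members in AD, 6 in OC and 7 in FM. It was above both for 5, 4 and 1, and below both for 1, 0 and 2. Some of these places rest on small gaps, as for Cartpt in AD, at 205 CPM in the mixture and 203 in decanal. No member was called against both components in any set.

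The spread of libraries inside their groups was not used to choose the members. With group means removed over 36 libraries, the 45 pairs of members had a median Pearson r of 0.44 (range -0.18 to 0.86), and 41 were positive. The closest pairs were Lrrc3b with Kcng1 (0.86), Heg1 with Dusp14 (0.84) and Lrrc3b with Dusp14 (0.83). Rasl11a and Cartpt had r of 0.63. Gem had r of -0.18 with Cartpt, -0.07 with Vsnl1 and 0.06 with Rasl11a. Deviations in the summed mature neuron markers went with those of Dusp14 (r 0.84), Nptx2 (0.82), Lrrc3b (0.79), Kcng1 and Heg1 (0.72 each), and hardly with those of Rasl11a (0.09) and Gem (0.09). These points share libraries and scaling, and no values for pairs of other genes are given beside them, so the values are descriptions.

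**Figure D4:**
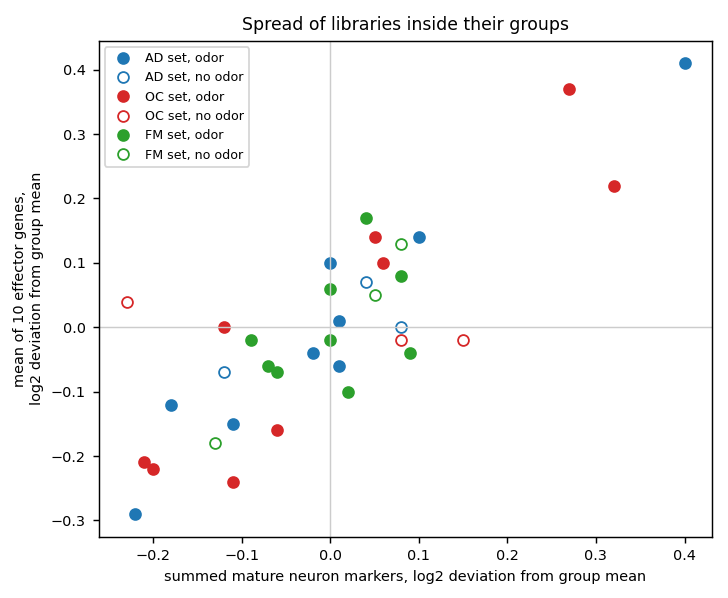
Each of 36 libraries is plotted by the log2 deviation of its summed mature neuron markers from the group mean (horizontal) and the mean log2 deviation of the 10 members (vertical), colored by set, with open points for no odor. Acetophenone replicate 2 is at the upper right (0.40, 0.41), followed by cis-3-hexenol replicate 1 (0.27, 0.37).

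The changes against no odor were also computed with libraries scaled to the mature neuron markers. This scaling moved the median of all genes to between -1.60 and -0.37 in the odor comparisons, and member values are given beside that shift. The member median was then 0.17 in acetophenone (all genes -0.76), 1.08 in decanal (-0.37) and 0.96 in their mixture (-0.46). It was 0.69 in octanal (-1.47), 0.13 in cis-3-hexenol (-0.71) and 0.30 in their mixture (-1.60), and 0.83, 0.75 and 0.79 in floral, mint and floral-mint (-0.44, -0.60 and -0.53). All 10 members stayed above 0 in decanal, the acetophenone-decanal mixture and the 3 fragrances. The count above 0 was 7 in acetophenone, 9 in octanal, 6 in cis-3-hexenol and 7 in the octanal-hexenol mixture. Cartpt was below 0 in all 3 odors of the OC set.

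**Figure D5:**
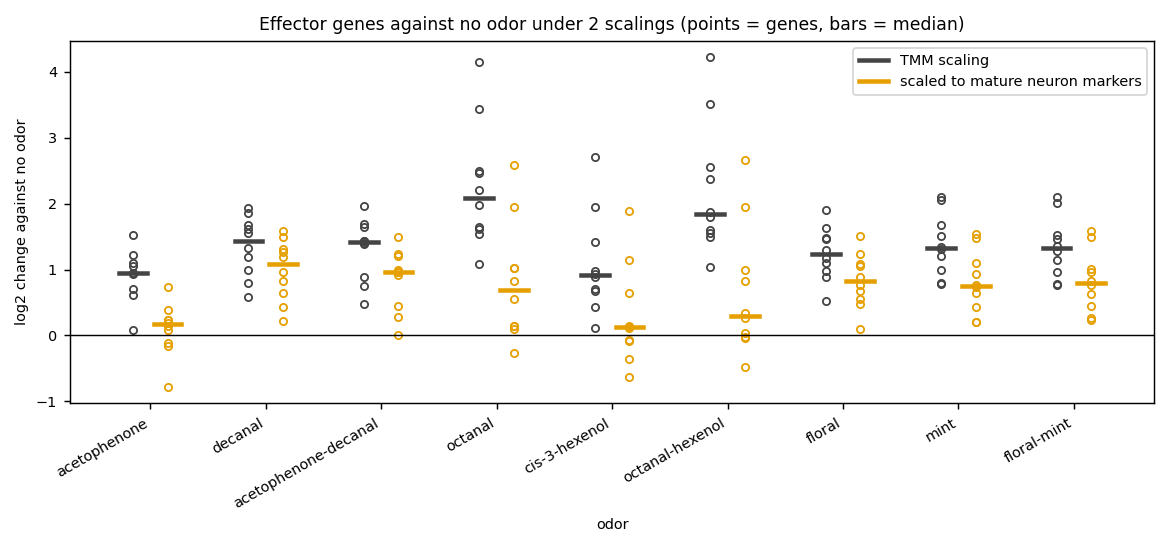
Log2 change of the 10 members (points) and their median (bars) against no odor in each of 9 odors (horizontal axis), with TMM scaling and with libraries scaled to 14 mature neuron markers. Medians fall from 0.92 to 0.13 in cis-3-hexenol and from 1.44 to 1.08 in decanal, and some points fall below 0 in acetophenone and in the OC set.

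Relatives of the members were tested against no odor. S100a3, a calcium-binding relative in the same gene cluster and on the same strand as S100a5, rose in 6 of 9 odors, by 2.63 in octanal (50.5 against 8.07 CPM, adjusted p 2.91e-05), 2.06 in the octanal-hexenol mixture and 1.15 to 1.75 in the acetophenone-decanal mixture and the fragrances. It stayed above 0 in all 6 with scaling to mature neuron markers (0.48 to 1.23), but was then not called in the acetophenone-decanal and octanal-hexenol mixtures. It was also higher in octanal than in cis-3-hexenol, by 1.93 (SE 0.307, adjusted p 0.0011). Whether reads were shared between these neighbours in the counting was not tested. Of the other S100 genes, S100a10 fell in 4 odors, S100a16 in 6 and S100a1, S100a4, S100a6 and S100b in 3 each, with TMM scaling. S100b is also on the glia marker list.

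Kcns3, a potassium channel modifier subunit like Kcng1, rose in 7 odors, by 0.49 to 0.94, and stayed above 0 in 4 of them with scaling to mature neuron markers. Its values were then -0.71 to 0.16. It was called higher in no odor and lower in octanal and the octanal-hexenol mixture. Nptxr, the membrane-bound receptor relative of Nptx2, rose in 7 odors, by 0.41 to 0.97, but stayed above 0 in only 1 under that scaling (0.10, not called). Rem2, of the family of Gem, rose in 5, by 0.95 to 2.72, and stayed above 0 in all 5, though not called in floral (0.53). Of the same family, Rem1 fell in mint (-0.81 with TMM scaling) and Rrad was called in no odor. Rasl11b, the closest named relative of Rasl11a, fell in acetophenone (-1.25), decanal (-1.01) and octanal (-0.61). Of the phosphatases listed with Dusp14, Dusp18 rose in 2 odors and fell in 1, Dusp19 rose in 1 and Dusp22 fell in 1. Of the partners of Heg1, Krit1 fell in 2 odors and rose in 1, Klf4 fell in 3, and Ccm2 and Pdcd10 rose in 2 each. When scaled to neuron markers, every rise of these phosphatases and partners was below 0. Among calcium sensors, Hpcal1 rose in 3 odors (0.36 to 0.95, and below 0 in each when scaled to neuron markers) while Ncald, a member also of the activity-regulated list, fell in 5 (-0.72 to -0.37). With TMM scaling Hpcal4 rose in 2 odors. Kcng2 fell in octanal (0.196 against 0.93 CPM) and Kcns2 rose in the octanal-hexenol mixture (0.785 against 0.182 CPM), both at very low levels. Among neuropeptides listed with Cartpt, Npy fell in 2 odors and Penk and Gal in 1 each, and none was called higher.

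A list of 66 other activity-regulated genes served as context. In octanal 23 of 61 tested rose and 4 fell, with 17.9% and 14.4% of all genes called in these directions, and in the octanal-hexenol mixture 22 rose and 7 fell (17.7% and 14.8%). In cis-3-hexenol 5 rose and 1 fell (2.58% and 3.16%). In the AD set, of 62 tested, 4 rose and 2 fell in acetophenone (4.22% and 1.27%), 7 and 5 in decanal (10.8% and 11.5%), and 11 and 5 in the mixture (10.9% and 10.4%). In the FM set, of 58 tested, 13 rose and 6 fell in floral (8.7% and 5.35%), 11 and 7 in mint (7.1% and 4.07%), and 12 and 4 in floral-mint (6.42% and 3.22%). The list's median log2 change was 0.43 in octanal and its mixture, 0.16 in cis-3-hexenol and between -0.09 and 0.12 in the others.

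With scaling to mature neuron markers most of the list's calls were falls, as were those of all genes. In acetophenone 0 rose and 45 fell (0.707% and 63.4% of all genes), in decanal 2 and 16 (2.08% and 25.4%), and in their mixture 2 and 17 (1.84% and 32.4%). In octanal 5 rose and 43 fell (1.01% and 86%), in cis-3-hexenol 0 and 23 (0.414% and 44%), and in their mixture 3 and 45 (0.899% and 88%). In floral 3 rose and 25 fell (1.11% and 44.4%), in mint 3 and 31 (1.08% and 62.6%), and in floral-mint 3 and 31 (1% and 56.8%). The counts that follow are again with TMM scaling, rises and falls together. The acetophenone count of 6 was 3, 1 and 3 without control replicate 1, 2 or 3, and 2 without acetophenone replicate 2. Of the 6 called in cis-3-hexenol, leaving out control replicate 1, 2 or 3 gave 1, 2 and 1, and leaving out cis-3-hexenol replicate 1 or 2 gave 2. For the acetophenone-decanal mixture the count of 16 was 9, 10 and 10 without control replicate 1, 2 or 3. Without FM control replicate 1 it was 11 of 19 in floral and 10 of 18 in mint, and without mint replicate 2 it was also 10. In floral-mint the count of 16 was 7 without control replicate 3, and 8 and 10 without mixture replicate 1 or 3.

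Maff, a small Maf transcription factor, rose in all 9 odors, by 0.87 in cis-3-hexenol to 2.48 in octanal (edgeR adjusted p 0.0188 and 6.72e-07). It stayed above 0 in all 9 when scaled to neuron markers (0.08 to 1.0). It was then not called in acetophenone, cis-3-hexenol or the octanal-hexenol mixture. Syt4, a synaptotagmin, rose in 7 and stayed above 0 in all 7 (0.04 to 0.78). Under neuron scaling it lost its call in cis-3-hexenol and in both binary mixtures. The phosphatase gene Dusp5 rose in 8 and Ppargc1a in 7, of which 4 and 5 stayed above 0. Neither kept a call under neuron scaling, with values of -0.30 to 0.12 and -0.06 to 0.31. Of 17 immediate early genes, Fosb rose in 9 odors (1.92 to 4.04) and Nr4a1 in 9 (1.49 to 3.81), Egr4 in 8 and Npas4 in 4, all above 0 under both scalings. Npas4 was near the floor, with means of 0.0665 CPM in FM controls and 0.94 to 1.12 with the fragrances. Egr4 was also low, with means of 0.921 to 1.73 CPM in controls. Under neuron scaling Fosb and Nr4a1 were not called in cis-3-hexenol. Egr4 was not called in acetophenone, floral or the octanal-hexenol mixture. The number of immediate early genes that rose was 8 in octanal (17.9% of all genes rose), 7 in its mixture (17.7%) and 2 in cis-3-hexenol (2.58%). It was 3, 6 and 4 in acetophenone, decanal and their mixture (4.22%, 10.8% and 10.9%), and 5, 4 and 6 in floral, mint and floral-mint (8.7%, 7.1% and 6.42%). Between 0 and 2 fell in each. Scaled to neuron markers, 5, 3 and 0 were called higher in octanal, its mixture and cis-3-hexenol, 2, 4 and 3 in the AD odors and 3, 4 and 5 in the fragrances, in the same orders. The numbers called lower were 8, 8 and 6, then 9, 3 and 5, and then 7, 7 and 8. Shares of all genes for that scaling are those given above, where most calls were also falls. Fos was then at -0.17 and Egr1 at -0.52 in octanal.

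Genes whose levels followed the members most closely were found over the 36 libraries with the set mean removed, among 18435 genes tested in all sets. For the mean of the standardized members they were Ctxn3 (Pearson r 0.983), Tsc22d1 (0.981), Chga (0.981), Schip1 (0.977), Trim45 (0.976), Fam131c (0.976), Nsg1 (0.973) and Tspan7 (0.973). The members themselves had r of 0.75 (Gem) to 0.98 (Lrrc3b) with that mean. By member, the closest gene was S100a3 for S100a5 (0.976), Schip1 for Lrrc3b (0.975), Kcnmb3 for Kcng1 (0.969), Olfm1 for Nptx2 (0.959) and Fam131c for Heg1 (0.972). It was Nxnl2 for Rasl11a (0.943), Fam213b for Cartpt (0.967), Plekhb1 for Dusp14 (0.985), Chga for Vsnl1 (0.976) and, for Gem, the immediate early gene Nr4a1 (0.873). These profiles hold the difference between odor and no odor, which chose the members.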

How the data were processed

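The deposited files, 1 per set, hold expected counts per gene, which the authors made with tools named in the submitters' processing notes as STAR 2.7.10b, Salmon 1.10.1 and R 4.4.2, on the build GRCm39. The gene annotation and the step that gave the counts are not given in the sources used here. Per library 11.1% to 16.4% of values were fractional, and all were rounded for the tests. Symbols came from a GENCODE table for 52029 of 57010 identifiers. Each set was fitted alone with its 4 groups in R 4.3.3 with edgeR 4.0.16 (filterByExpr with minimum count 10 and minimum total 15, TMM, quasi-likelihood F-tests, prior count 0.125). Benjamini-Hochberg adjustment covered every gene in a fit, and calls needed an adjusted p under 0.05. Intervals are 95% and use the fit's degrees of freedom. The 9 comparisons between odors were tested for the members; the 9 against no odor were not, since they chose the members. Members and lists were chosen with earlier results of these data known. All members were named. Of each list, up to 4 called genes per odor by smallest p whose libraries did not overlap between groups could be named. Only part of the genes that met this rule was named, and no set rule chose among them. The genes named are thus no full account of the lists. Errfi1, S100a6 and Rrad, and Fos and Egr1 under neuron scaling, fall outside that rule and were named after their values were seen. Likeness used log2 CPM with predicted genes and olfactory receptors left out. Alternatives were DESeq2 1.42.0, no count filter, the replicate number as a block, a single fit of 36 libraries, scaling to 14 mature neuron markers (geometric mean), and leaving out each library. Recovery was tested on simulated data. The labels state 3 biological replicates per group and tie no replicate number to an animal, litter or day. A listed relative of the members is not reported here.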

Additional observations from a re-analysis of the deposited data

How the results depend on the processing

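Replicate numbers recurred in every group, and the labels do not say whether they pair samples. Over all genes, same-numbered libraries had deviations correlated at -0.145 to 0.134 and no comparison had every pair over 0.1. No pairing by number was thus seen, though 3 libraries per group cannot exclude it. With the replicate block the counts of called members were 3, 2, 0, 10, 0, 9, 0, 0 and 0 in the 9 direct comparisons, in the order acetophenone against decanal, their mixture against each, octanal against cis-3-hexenol, their mixture against each, floral against mint, and floral-mint against each. The added call was Gem in octanal against cis-3-hexenol, at 0.73 (edgeR adjusted p 0.0436). Leaving out 1 library gave 2 to 7, 2 to 8, 0, 8 to 10, 0, 7 to 10, 0, 0 and 0. Scaling to mature neuron markers gave 9 for acetophenone against decanal, 9 for the mixture against acetophenone, 4 for octanal against cis-3-hexenol and 3 for the mixture against cis-3-hexenol. Without a count filter there were 5 for the acetophenone-decanal mixture against acetophenone, 3 for floral against mint, and 1 for floral-mint against each. A single fit gave 5 for acetophenone against decanal and 4 for the mixture against acetophenone. DESeq2 gave 1 for that mixture against decanal and 1 for floral against mint. Shares of all genes called are given only for the edgeR fit described above and for neuron scaling. No result about the members is read from the counts under the other settings or at an unadjusted p under 0.05. Against no odor, member medians without 1 library were 0.68 to 1.08 in acetophenone, 1.35 to 1.54 in decanal, 1.34 to 1.46 in their mixture, 1.94 to 2.21 in octanal, 0.63 to 1.03 in cis-3-hexenol, 1.80 to 1.92 in their mixture, 1.18 to 1.29 in floral, 1.20 to 1.38 in mint and 1.26 to 1.36 in floral-mint. Scaled to neuron markers they were 0.17, 1.08, 0.96, 0.69, 0.13, 0.30, 0.83, 0.75 and 0.79 in the same order. Members that changed sign under that scaling were S100a5 (-0.78), Rasl11a (-0.16) and Vsnl1 (-0.11) in acetophenone, Cartpt in octanal (-0.27), S100a5 (-0.36), Nptx2 (-0.09), Rasl11a (-0.07) and Cartpt (-0.63) in cis-3-hexenol, and Nptx2 (-0.04), Cartpt (-0.48) and Gem (-0.03) in the octanal-hexenol mixture. Leaving out 1 library moved S100a5 in acetophenone from -0.36 (without acetophenone replicate 2) to 0.35, and Cartpt in cis-3-hexenol from -0.10 (without control replicate 1) to 0.22. For the activity-regulated list the number called was 1 to 9, 8 to 12, 9 to 14, 21 to 32, 1 to 4, 23 to 30, 11 to 16, 10 to 17 and 7 to 14 without 1 library, in the same order. Without a filter it was 12 in acetophenone and 12 in cis-3-hexenol, and by DESeq2 13 and 11. Scaled to neuron markers it was 45 in acetophenone, 48 in octanal, 23 in cis-3-hexenol, 48 in their mixture, 34 in mint and 34 in floral-mint. With a single fit it was 14 in cis-3-hexenol, 10 in floral, 6 in mint and 6 in floral-mint. The cause of these shifts was not tested. In the simulated data, 2-fold changes were often missed in the AD and OC sets. Far fewer genes were changed there than were called between the same odors, so the recovery that applied to the members is not known. With 3 replicates per group, a member not called may still differ.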

Other observations

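Arc, an immediate early gene of synapses, fell in decanal (-1.23, edgeR adjusted p 3.5e-05) and in 1 more odor, the acetophenone-decanal mixture (-0.56). Bhlhe40, a transcriptional repressor, fell in 5 odors, all in the AD and FM sets, at -0.49 to -0.59, and Dusp6, a MAP kinase phosphatase, fell in 5 (-0.26 to -0.52). In the OC set Bhlhe40 was at 0.08 to 0.18 and was not called; the difference between sets was not tested. Errfi1, which inhibits the EGF receptor, fell in 4 odors (-0.34 to -0.50).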
